A study of Mus musculus with 44 samples.

Results

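Traj18 is the α-chain joining gene of the invariant natural killer T (iNKT) cell receptor, and it is also used by conventional αβ T cells in many other combinations. Its CDR3s, the loops of the receptor chain that span the V-to-J join, were picked out of tumour T cell receptor (TCR) sequencing by their last 9 residues, GSALGRLHF. They were split into the invariant form, which has 15 residues and reads Cys, any residue, then the 13 residues VGDR plus that ending, and all others, called variable here. Of 35230 distinct α-chain (TRA) CDR3s, 613 carried the ending: 1 was invariant and 612 were variable. A further 41 TRA CDR3s, with 731 reads, matched Traj18 by a shorter end and lay just outside the rule. The data are read counts of CDR3s in 44 subcutaneous B16F10 melanomas of wild-type C57BL/6 mice (C57BL/6J in the study's methods), taken on day 12 as bulk tissue, with 1 library per tumour. The groups were 15 tumours under AC484 (an inhibitor of the phosphatases PTPN2 and PTPN1), 15 under the checkpoint antibody anti-PD-1 and 14 labelled vehicle, which the study's methods describe as no treatment. The study's methods give ages of mice and doses of AC484 and anti-PD-1 for its tumour experiments in general, with several AC484 schedules, and do not say which applied to these tumours. All groups carried the same tumour line, and reads from bulk tissue do not tell fewer T cells from less receptor RNA per cell.

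TRA took 20.5% of all reads. TRA depth differed between groups: 18508 to 315679 reads per AC484-treated tumour (median 67192), 10432 to 108156 per anti-PD-1-treated tumour (median 21959) and 1466 to 24129 per vehicle-treated tumour (median 8762.5). The table named 4 sets of index primers. Set 1 held vehicle-treated tumours 1 to 12, set 2 the other 2 vehicle-treated tumours with anti-PD-1-treated tumours 1 to 10, set 3 the other 5 of these with AC484-treated tumours 1 to 7, and set 4 the remaining 8 AC484-treated tumours. AC484 and vehicle never met in one set, so set and treatment cannot be told apart in that comparison. Reads carry no molecular identifiers, and confidence intervals given here cover counting error only.

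An α chain is made when a V and a J segment are cut, trimmed and joined, with bases added by a template-free enzyme. The iNKT receptor joins Trav11 to Traj18 and, with a limited set of β chains, binds lipids shown by CD1d, a molecule that does not vary between individuals. iNKT cells respond early, with large amounts of cytokines, and have been studied in melanoma through the lipid α-galactosylceramide. The germline segments and 2 ways to join them without an added base are shown because they translate to the invariant form and to the variable Traj18 chain found in the most tumours. Traj18 lies at chr14:54200777-54200842, plus strand, and the Trav11 end at chr14:53519830-53519859, plus strand, both in GRCm38. Capitals in Traj18 mark the 27 bases that code for the shared ending. Capitals in the Trav11 end mark the bases that code for Cys, Val, Val and Gly, and the lower-case base after them is also Trav11. In the joins, capitals mark the bases from Trav11.
Traj18 germline: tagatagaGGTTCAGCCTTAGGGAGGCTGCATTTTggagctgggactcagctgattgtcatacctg
Trav11 germline end: acactgccacctacatcTGTGTGGTGGGCg
Invariant join, 12 bases of Trav11 and 33 of Traj18: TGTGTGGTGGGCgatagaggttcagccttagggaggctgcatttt
Second join, 10 bases of Trav11 and 35 of Traj18: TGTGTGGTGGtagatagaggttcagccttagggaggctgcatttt
The invariant join leaves out the first 2 bases of Traj18 and reads CVVGDR before the shared ending. The second keeps them, ends Trav11 2 bases earlier and reads CVVVDR before the ending. The table gives no nucleotides, so these are joins that the residues allow, not joins that were sequenced.

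The single invariant CDR3 has Val at its free position. It is called invariant from the CDR3 alone, since neither the V gene, the paired β chain nor CD1d binding was measured. It was found in 44 of 44 tumours, and it was the only TRA CDR3 found in all of them, the next most widespread being in 42. With 11246 reads it ranked 10 among all TRA CDR3s and held 46.3% of Traj18 reads. It took from 0.153% to 1.28% of TRA reads in AC484-treated tumours (median 0.696%), from 0.258% to 1.99% in anti-PD-1-treated tumours (median 0.559%) and from 0.0728% to 1.36% in vehicle-treated tumours (median 0.406%). The ranges of the groups overlapped over most of their width. Within a tumour it was a common but not a leading chain: its rank by reads among TRA CDR3s had a median of 24 in AC484-treated tumours (8 to 46), 22 in anti-PD-1-treated tumours (7 to 41) and 20.5 in vehicle-treated tumours (9 to 112). It exceeded 1% of TRA reads in 3 AC484-treated, 3 anti-PD-1-treated and 2 vehicle-treated tumours. Its highest share was in anti-PD-1-treated tumour 13, with 480 of 24094 TRA reads (1.99%, 95% Wilson interval 1.82% to 2.18%).

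The read count behind these shares was small in some vehicle-treated tumours. There were 29 to 1120 invariant reads per AC484-treated tumour (median 479), 48 to 742 per anti-PD-1-treated tumour (median 180) and 2 to 201 per vehicle-treated tumour (median 24). Vehicle-treated tumour 5 had 2 of 1878 TRA reads (0.106%, 95% Wilson interval 0.0292% to 0.387%). Every tumour had at least 1 invariant read, so detection at that limit could not differ between groups. Its test was fixed in advance and decides nothing (Fisher's exact test, two-sided, p = 1 for each of 3 comparisons). At least 10 reads were found in 15 of 15 AC484-treated, 15 of 15 anti-PD-1-treated and 10 of 14 vehicle-treated tumours. With counts under 1% of the largest invariant count, 1120 in AC484-treated tumour 6, left out as possible carry-over between libraries, 7 vehicle-treated tumours and no treated tumour lost the chain. Both limits are numbers of reads and the groups differed in depth, so these counts are given with no test: vehicle-treated tumour 10 was lost with 10 invariant reads, 0.682% of its TRA reads, and AC484-treated tumour 9 was kept at 0.153%. In 100 draws of 1466 TRA reads, the chain was found in 86 to 100% of draws of each AC484-treated tumour, 95 to 100% for anti-PD-1 and 68 to 100% for vehicle. The mean shares of draws differed by 3.54 percentage points for AC484 against vehicle and 4.60 for anti-PD-1 against vehicle (permutation p = 0.296 and 0.139).

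**Figure D1:**
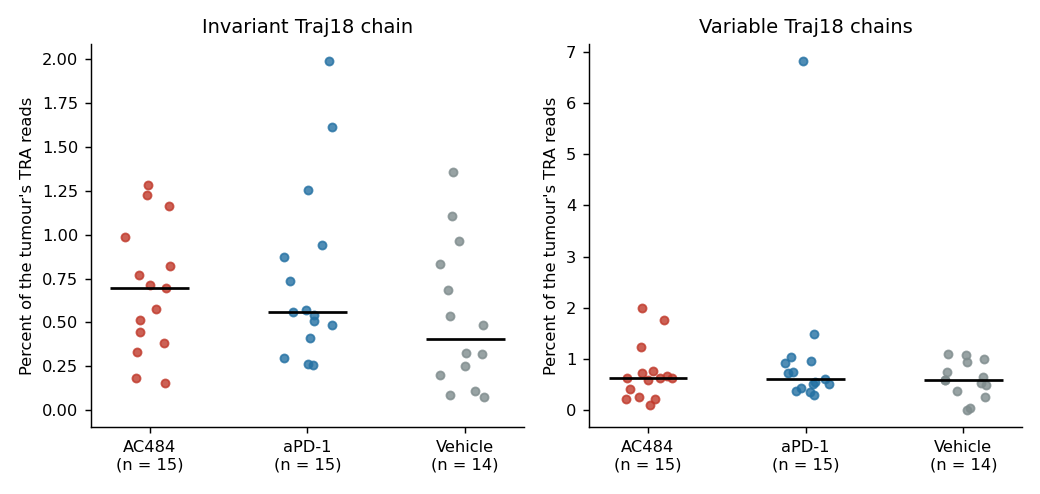
Percent of TRA reads taken by the invariant Traj18 chain (left) and by variable Traj18 chains (right), 1 point per tumour, with the group median as a line and anti-PD-1 written aPD-1. The invariant chain lies between 0.0728% and 1.99% in every tumour with overlapping groups, and 1 anti-PD-1-treated tumour stands at 6.81% for variable chains.

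The invariant share did not differ between treatments beyond the spread between tumours. It averaged 0.683% ± 0.363 of TRA reads in AC484-treated tumours, 0.753% ± 0.510 in anti-PD-1-treated tumours (SD, n = 15 each) and 0.522% ± 0.409 in vehicle-treated tumours (SD, n = 14). The difference was 0.160 percentage points for AC484 against vehicle (permutation p = 0.272) and 0.231 for anti-PD-1 against vehicle (permutation p = 0.193), with an adjusted p of 0.547 for both over 15 tests. AC484 against anti-PD-1 differed by -0.07 percentage points (permutation p = 0.670, adjusted p = 0.718). Within set 3 this last difference was -0.26 percentage points over 7 AC484-treated and 5 anti-PD-1-treated tumours (exact permutation p = 0.442). Within set 2, anti-PD-1 against vehicle was 0.265 percentage points over 10 and 2 tumours (exact permutation p = 0.379). A miss of the threshold does not show that the groups are alike.

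One choice of denominator gave a difference in the invariant share. As a share of reads of both chains, the invariant chain was 0.115 percentage points higher in AC484-treated than in vehicle-treated tumours (permutation p = 0.00248, adjusted p = 0.0372). Here and below, reads of both chains are all reads, those of CDR3s assigned to neither chain included. The TRA share of all reads itself had a median of 31.7% in AC484-treated tumours, 8.12% in anti-PD-1-treated tumours and 18.1% in vehicle-treated tumours. It also differed between index sets within a treatment. Its mean was 6.61% in set 2 and 30.8% in set 3 under anti-PD-1, and 18.1% in set 1 and 4.49% in set 2 under vehicle. Under AC484 it was 30.3% in set 3 and 29.7% in set 4. The part of the TRA share or of index set in that difference was not tested. The most-read TRA CDR3 of a tumour took on average 16.1% of TRA reads in AC484-treated tumours, 16.9% in anti-PD-1-treated tumours and 26.1% in vehicle-treated tumours. With it taken out of the denominator, AC484 against vehicle came to 0.0936 percentage points (permutation p = 0.578).

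Around the invariant chain lay a group of close relatives. Of the 612 variable CDR3s, 20 were 1 residue away from it (18 by a substitution, 2 by a residue gained or lost). They held 1037 reads in 32 tumours, 9.22 reads per 100 invariant reads when pooled. For 11 of the 20, a single base change in the invariant join would give the residues. By comparison, 33 other TRA CDR3s with at least 5000 reads had 0 to 26 (median 10) neighbours by a substitution before their last 9 residues. The invariant form had 18. A longer CDR3 offers more such positions, and the counts were not matched for length. Whether a relative is a separate rearrangement or a misread copy cannot be read from amino acids.

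The most widespread relative was CVVVDR (before the shared ending), the second join shown with no added base. It was found in 20 tumours: 7 under AC484 with 1 to 16 reads, 7 under anti-PD-1 with 2 to 37 reads and 6 under vehicle with 2 to 18 reads. It was the variable Traj18 chain found in the most tumours. CVVADR, which needs at least 1 added base, was found in 16 tumours, 6 under AC484, 8 under anti-PD-1 and 2 under vehicle, with 1 to 28 reads each. CVVGAR, named after its values were seen, had the most reads among the relatives. It had 190, 5, 26, 121, 109 and 44 reads in 6 of 15 AC484-treated tumours (numbers 2, 4, 6, 7, 10 and 14), none in 15 anti-PD-1-treated tumours, and 2 and 1 reads in 2 of 14 vehicle-treated tumours. Its counts above 2 all came from the AC484 group, which had the deepest libraries, and the difference was not tested.

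Of the 20 relatives, 17 began with CVV, as the invariant form does, which their definition largely fixes. CVV is encoded in GRCm38 only by Trav11 and its copy Trav11d among 108 V genes read. It began 29 of 612 variable Traj18 CDR3s (4.74%) and 1.00% of 34617 other distinct TRA CDR3s. Without the 20 relatives the share was 12 CDR3s, 2.03%. In the tumour means, relatives included, CVV began 9.55% ± 10.5 of a tumour's variable Traj18 CDR3s and 0.669% ± 0.338 of its other TRA CDR3s (SD, n = 43), and the first share was the higher in 34 of 43 tumours. Of all 612 variable chains most began with CAA (22.9%), CAL (20.4%) or CAV (20.3%), starts that 21 or more V genes share, against 26.8%, 25.3% and 17.6% of other TRA CDR3s.

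The variable chains together had about as many reads as the invariant one, 13018 in all, spread over 43 of 44 tumours. They took from 0.0919% to 1.99% of TRA reads in AC484-treated tumours (median 0.633%), from 0.289% to 6.81% in anti-PD-1-treated tumours (median 0.605%) and from 0 to 1.10% in vehicle-treated tumours (median 0.585%). Vehicle-treated tumour 5 had 0 of 1878 TRA reads (95% Wilson interval 0 to 0.204%). Invariant reads outnumbered variable reads in 8 of 15 AC484-treated, 5 of 15 anti-PD-1-treated and 6 of 14 vehicle-treated tumours. Across 44 tumours both shares had a Spearman's rho of 0.39, as a description, since they share the library and the denominator.

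Most variable chains were rare, and a few were large in 1 tumour. An entry had a median of 3 reads, against 160.5 for the invariant chain, and 25.5% of entries were single reads. Only 3 entries reached 1% of a tumour's TRA reads. CAVSGAG had 929 reads in anti-PD-1-treated tumour 6, 6.34% of its TRA reads, and 1 read in another anti-PD-1-treated tumour. CALSDR had 1084 reads in AC484-treated tumour 13 (1.27%). In its 12 other tumours it had at most 20 reads, so it was both widespread and, once, large. CAASRG had 433 reads in AC484-treated tumour 10 (1.07%), 1 in another AC484-treated tumour and 77 in an anti-PD-1-treated tumour. CAARVDR had 748 reads in anti-PD-1-treated tumour 11 (0.692%) and CAMERDR had 536 in anti-PD-1-treated tumour 15 (0.907%). The chain with the most vehicle reads, CAASR, had 57 reads in vehicle-treated tumour 3 (0.236%). The large variable chains thus differed from tumour to tumour, with no CDR3 over 1% in 2 tumours.

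The share of variable chains did not differ between treatments beyond the spread. It averaged 0.718% ± 0.548 of TRA reads in AC484-treated tumours, 1.09% ± 1.62 in anti-PD-1-treated tumours (SD, n = 15 each) and 0.596% ± 0.355 in vehicle-treated tumours (SD, n = 14). The permutation p was 0.490 for AC484 against vehicle, 0.595 for AC484 against anti-PD-1 and 0.312 for anti-PD-1 against vehicle (adjusted p = 0.669, 0.718 and 0.547). Tumour 6 alone set the anti-PD-1 mean, which was 0.676% ± 0.330 without it (SD, n = 14), and the difference of anti-PD-1 from vehicle was 0.489 percentage points with it and 0.0799 without it. AC484 minus anti-PD-1 was -0.37 percentage points with it and 0.0425 without it. Within index sets the difference was -0.18 for AC484 against anti-PD-1 in set 3 (7 and 5 tumours, exact permutation p = 0.477) and 0.592 for anti-PD-1 against vehicle in set 2 (10 and 2 tumours, exact permutation p = 0.652). Anti-PD-1-treated tumour 6 lies in set 2, and without it that difference was -0.0259 (9 and 2 tumours, exact permutation p = 0.836).

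The number of distinct variable chains moved with depth. There were 16 to 86 per AC484-treated tumour (median 36), 9 to 47 per anti-PD-1-treated tumour (median 18) and 0 to 22 per vehicle-treated tumour (median 9). These counts differed in all 3 comparisons (permutation, adjusted p = 0.00015 for AC484 against vehicle, 0.0204 against anti-PD-1, and 0.0003 for anti-PD-1 against vehicle). Drawn to an equal 1466 TRA reads, 5.65 ± 2.42, 5.80 ± 1.65 (SD, n = 15 each) and 4.82 ± 2.93 (SD, n = 14) distinct chains were found under AC484, anti-PD-1 and vehicle, and no comparison passed (permutation p = 0.411 for AC484 against vehicle, 0.841 against anti-PD-1 and 0.272 for anti-PD-1 against vehicle). Drawing both chains to 8080 reads before taking TRA gave 3.88 more chains under AC484 than under vehicle. Against anti-PD-1 it gave 3.76 more (permutation, adjusted p = 0.0184 for both). Over all index sets, the TRA share of all reads had a higher median under AC484 than under either. In set 3, the only set with both AC484 and anti-PD-1, its mean was 30.3% under AC484 (7 tumours) and 30.8% under anti-PD-1 (5 tumours). Its part in these differences was not tested.

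**Figure D2:**
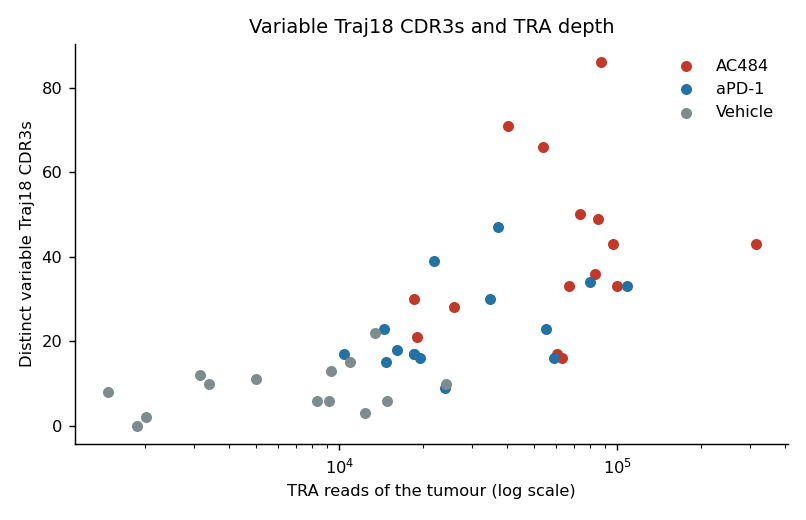
Distinct variable Traj18 CDR3s of each tumour against its TRA reads on a log axis, coloured by treatment. The counts run from 0 to 86 and climb with depth, and vehicle-treated tumours fill the shallow end.

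As a share of a tumour's distinct TRA CDR3s, variable Traj18 chains had a median of 1.77% in AC484-treated tumours (1.17% to 2.43%), 1.99% in anti-PD-1-treated tumours (1.34% to 2.70%) and 2.31% in vehicle-treated tumours (0 to 3.61%). Vehicle-treated tumours spread on both sides of the treated ones. Below these lay only vehicle-treated tumours 5 and 8, at 0 and 0.565%, from 1878 and 2014 TRA reads. Above the vehicle median lay 1 of 15 AC484-treated and 1 of 15 anti-PD-1-treated tumours. The means were 1.76% ± 0.332, 1.93% ± 0.362 (SD, n = 15 each) and 2.22% ± 1.07 (SD, n = 14), and no difference passed (permutation p = 0.119, 0.179 and 0.328 for AC484 against vehicle, AC484 against anti-PD-1 and anti-PD-1 against vehicle, adjusted p = 0.547 for each). Within index sets the differences ran the same way: -0.42 percentage points for AC484 against anti-PD-1 in set 3 (7 and 5 tumours, exact permutation p = 0.0189, adjusted p = 0.284) and -1.11 for anti-PD-1 against vehicle in set 2 (10 and 2 tumours, exact permutation p = 0.0303, adjusted p = 0.455).

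Counted in distinct CDR3s beside the other joining genes, Traj18 made up a smaller part under AC484 than under vehicle. The call did not hold in every setting, as given below, and AC484 and vehicle shared no index set. The test was edgeR's quasi-likelihood test on numbers of distinct CDR3s per Traj gene, invariant form included. Traj18 had 654 distinct CDR3s here, since the 41 matched by a shorter end were counted in. It covered the 43 Traj genes with at least 100 distinct CDR3s. The log2 fold change of Traj18 was -0.43 (SE 0.15, edgeR adjusted p = 0.0373) for AC484 over vehicle, -0.15 (SE 0.10, adjusted p = 0.356) for AC484 over anti-PD-1 and -0.28 (SE 0.15, adjusted p = 0.417) for anti-PD-1 over vehicle. Of the 43 genes, 9.30% passed in the first comparison, 9.30% in the second and 2.33% in the third. Those in the first were Traj7 (-0.91), Traj15 (-0.44) and Traj18, which were lower under AC484, and Traj26 (0.39), which was higher. DESeq2 also called Traj18 for AC484 over vehicle (adjusted p = 0.0151).

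The call was lost without the invariant chain, which adds 1 distinct CDR3 to every tumour however few it has. The median number of distinct TRA CDR3s was 1931 per AC484-treated tumour and 357.5 per vehicle-treated tumour. Without the invariant form the log2 fold change was -0.35 and the edgeR adjusted p 0.182. The part of the invariant form in the call was not tested. The call was also lost when any one of AC484-treated tumour 3 or vehicle-treated tumours 2, 4, 7, 9 and 13 was left out (edgeR adjusted p between 0.0536 and 0.119), and with index set as a factor (log2 fold change -0.79, edgeR adjusted p = 0.389). AC484 and vehicle shared no set, so the fit with that factor compares them only through the anti-PD-1-treated tumours of sets 2 and 3. Its estimate was larger in size than -0.43, and this setting cannot decide whether the call holds. Counted in reads rather than distinct CDR3s, the difference took the other sign (0.11, edgeR adjusted p = 0.939).

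**Figure D3:**
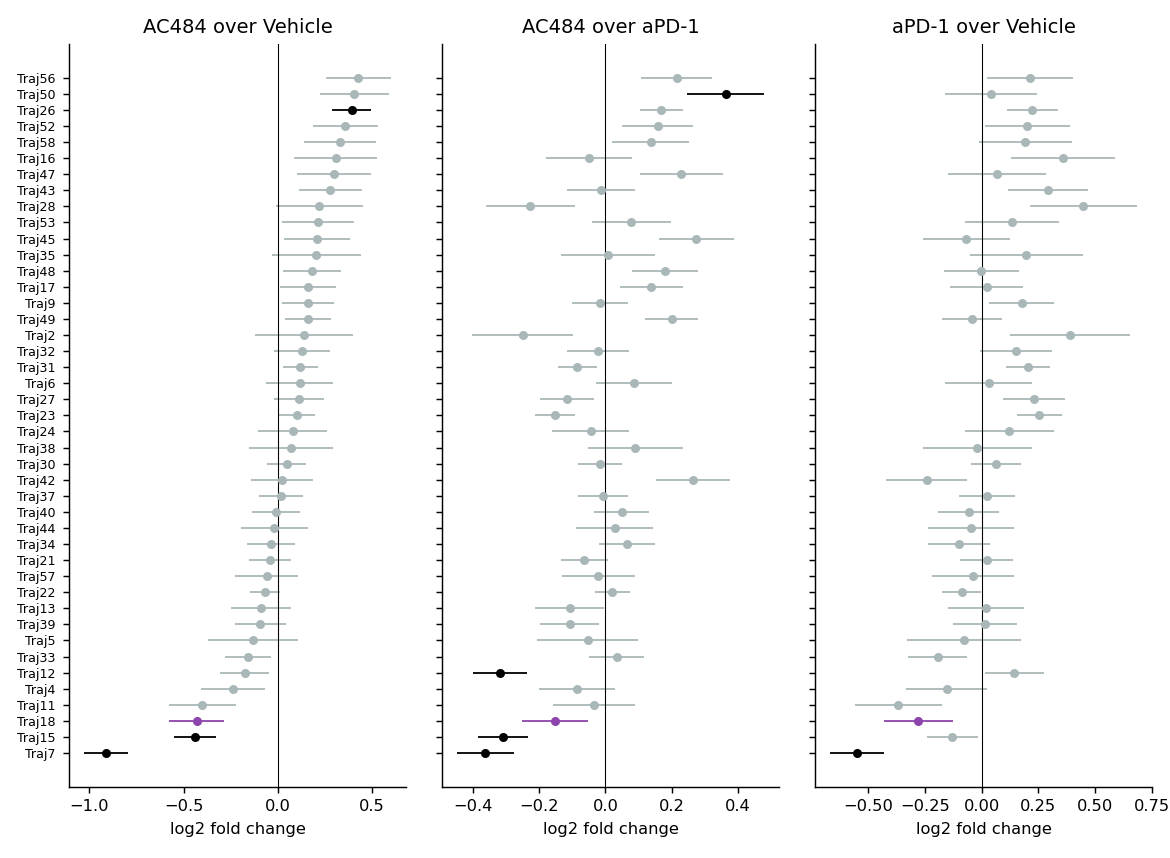
Log2 fold change (points) with its standard error (bars) of distinct CDR3s for 43 Traj genes in 3 comparisons, Traj18 in purple and other genes with an edgeR adjusted p under 0.05 in black. Traj18 lies at -0.43, -0.15 and -0.28, and Traj7 lies lowest for AC484 over vehicle, at -0.91. Traj18 is counted with the invariant form and with CDR3s matched by a shorter end.

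The neighbours of Traj18 on the chromosome did not share one pattern. For AC484 over vehicle, Traj17, the next segment downstream, had a log2 fold change of 0.16, Traj16 of 0.31 and Traj21 of -0.04, none past the threshold (edgeR adjusted p = 0.543, 0.521 and 0.843), and Traj15 fell by 0.44 (edgeR adjusted p = 0.00225). Traj19 and Traj20 were not used here, as no ending was read for them. Over the 44 tumours, the Traj genes whose share of distinct TRA CDR3s was most like that of variable Traj18 were Traj7, Traj12 and Traj13, with Spearman's rho of 0.23, 0.21 and 0.20. The genes whose share of TRA reads was most like the invariant share were Traj6, Traj35 and Traj42, at 0.45, 0.40 and 0.38. All are weak, over tumours that share depth and denominator with both measures.

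The length of variable Traj18 chains is in part set by the rule, which asks for 9 residues of the J segment, so it is described with no test. Their most common length was 15 residues, that of the invariant form, with 228 of 612 (37.3%), and 68.3% had 15 residues or more, against 29.4% of other distinct TRA CDR3s. Within a tumour the distinct variable chains averaged 14.7 ± 0.305 residues and the other TRA CDR3s 13.6 ± 0.0678 (SD, n = 43), a mean difference of 1.12 residues, positive in 43 of 43 tumours. The germline Traj18 segment brings 11 residues up to the closing Phe, as many as any of the 43 Traj genes and as 7 of the others. With 41 CDR3s that matched Traj18 by a shorter end counted in, the mean over distinct CDR3s was 14.95 residues, the sixth-highest of 43 Traj genes, and 15.04 without them.

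**Figure D4:**
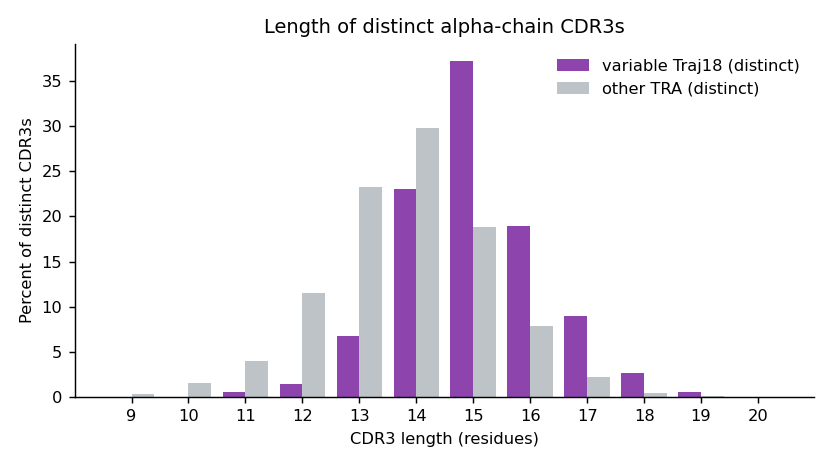
Percent of distinct CDR3s at each length in residues, variable Traj18 beside all other TRA CDR3s. The variable chains peak at 15 residues (37.3%), the others at 14 (29.8%).

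Length varied little with treatment. A tumour's variable chains averaged 14.8 ± 0.205 residues under AC484, 14.7 ± 0.277 under anti-PD-1 (SD, n = 15 each) and 14.6 ± 0.407 under vehicle (SD, n = 13, as 1 tumour had none). The permutation p was 0.122 for AC484 against vehicle, 0.156 for AC484 against anti-PD-1 and 0.646 for anti-PD-1 against vehicle, with no adjusted p under 0.547.

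Sharing between tumours was uneven. Of the 612 variable chains 445 (72.7%) were found in 1 tumour, 133 in 2 to 4, 23 in 5 to 9 and 11 in 10 or more. These 11 held 2311 reads, 17.8% of variable reads, and 1084 of the 2311 were CALSDR in AC484-treated tumour 13 alone. The share in 2 or more tumours was 27.3%, beside 25.3% of other TRA CDR3s, and in 10 or more it was 1.80%, beside 1.17%. By group, 407 were found under AC484, 259 under anti-PD-1 and 103 under vehicle, of 24456, 13548 and 4593 distinct TRA CDR3s. A set of 32 chains was found in all 3 groups. Found under AC484 alone were 291, under anti-PD-1 alone 147 and under vehicle alone 49, numbers that move with depth. No such split is given for the other TRA CDR3s, so these counts show nothing particular to Traj18.

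The most shared chains were those closest to germline. For each CDR3, the fewest bases that must lie between any of 108 germline Trav ends and Traj18 were computed from the residues. No added base was needed for 110 variable chains, of which 58.2% were found in 2 or more tumours and 23 in 5 or more. With 1 to 3 bases it was 29.3% of 324 chains, with 4 to 6 bases 4.23% of 142, and with 7 or more 6.90% of 29. For 7 chains no join was found. Over the other 605, the number of added bases and of tumours had a Spearman's rho of -0.42, given as a description, since related chains and shared libraries make the points dependent. The 5 chains in the most tumours were CVVVDR (20), CAAR (18), CVVADR (16), CAASG (14) and CALSDR (13), and only CVVADR among them needs an added base. CAAR, of 13 residues, had 1 to 17 reads in 10 AC484-treated tumours, 2 to 22 in 6 anti-PD-1-treated tumours and 1 in each of 2 vehicle-treated tumours. CAASG had 3 to 19 reads in 6 AC484-treated, 1 to 17 in 6 anti-PD-1-treated and 3 and 7 in 2 vehicle-treated tumours. CAVSGAG, the variable Traj18 chain with the highest share in any tumour, needs 6 added bases and was found in 2 tumours.

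**Figure D5:**
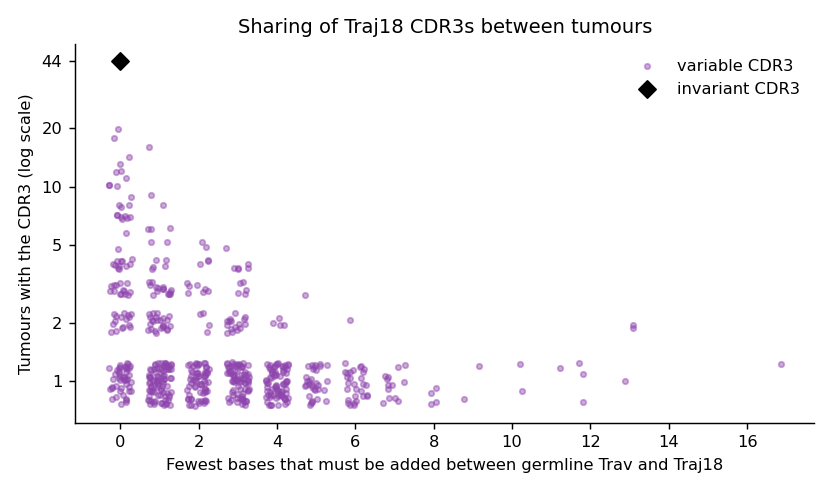
Number of tumours holding each Traj18 CDR3 (log axis) against the fewest bases that must be added between a germline Trav end and Traj18, with points spread slightly to show overlaps. The invariant form stands at 0 bases and 44 tumours, and no variable chain that needs 4 or more bases was found in over 3 tumours.

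The match to germline Traj18 varied among the variable chains. All 11 germline residues, from the Asp on, were matched by 148 (24.2%). Another 251 (41.0%) matched 10, and 213 (34.8%) only the 9 of the rule. A matching residue can also come from the V end or from added bases, so these counts do not measure trimming. The 148 held 5045 of the 13018 variable reads, CALSDR, CAARVDR, CAMERDR and CVVVDR among them.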

How the data were processed

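The authors captured TCRα and TCRβ transcripts from bulk tumour RNA with a SMARTer kit, sequenced them on a MiSeq and built amino acid clonotypes with MiXCR. The submitters' notes name mm10. The deposited values are counts of reads for each amino acid sequence in each tumour, both chains in one table, with no V gene, chain or nucleotides, and not brought to equal depth. The authors also deposited each count as a fraction of the tumour's total, which was not used here.

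Germline J endings translated from GRCm38 (47 TRA and 12 TRB) gave chain and J gene, taking the ending that matched over most residues, with a minimum of 4. Differences of group means were tested by two-sided permutation (100000 resamples, exact where a group had under 10 tumours). The 15 p-values (5 measures, 3 comparisons) were adjusted together by the Benjamini-Hochberg method. An alternative's p replaced its own among these. Equal depth was the mean of 100 draws without replacement. Usage was tested with edgeR (4.0.16) with TMM scaling, DESeq2 (1.42.0) being an alternative. Tests were checked on simulated data. Replicates are labelled as separate tumours, so p-values measure the spread between tumours.

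Members, lists and measures were chosen with earlier results of these data known. Named are the invariant CDR3, the 5 variable CDR3s in the most tumours and the 5 with the most reads, the most-read of each group, the 3 Traj genes most like each form, and neighbouring Traj genes. CDR3s are printed by the residues before GSALGRLHF. Alternatives were other denominators, filters, scales, tests, depths and tumour sets. Leaving out tumours under 5000 TRA reads, index set 2 without anti-PD-1-treated tumour 6, the denominator without the most-read CDR3, and Traj18 by the shared ending alone in the usage test were chosen after seeing the data. Permutation tests used SciPy 1.17.1 and NumPy 2.4.6 under Python 3.11.15, adjustment statsmodels 0.14.6, tables pandas 2.3.3, and edgeR ran in R 4.3.3.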

Additional observations from a re-analysis of the deposited data

How the results depend on the processing

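Of 199 alternative settings over 22 results, leaving single tumours out aside, 176 kept the direction and the side of the threshold. The counts take in detection of the invariant chain, which had no direction to keep. They also take in the length against other TRA CDR3s, which the rule sets in part. So 176 is not a measure of how firm the other results are. As a share of reads of both chains, the invariant share differed by 0.115 percentage points for AC484 against vehicle, now past the threshold, and by 0.0765 for AC484 against anti-PD-1, a change of sign, as for the variable share in that comparison (0.0824). Without the most-read TRA CDR3 in the denominator the variable share was -0.0229 for AC484 against vehicle. Within index set 2 and without anti-PD-1-treated tumour 6, it was -0.0259 for anti-PD-1 against vehicle. With all reads in place of equal depth, distinct variable chains differed by 32.6 for AC484 against vehicle, 17.9 for AC484 against anti-PD-1 and 14.7 for anti-PD-1 against vehicle. With both chains drawn to 8080 reads the first was 3.88 and the second 3.76. For AC484 against anti-PD-1 at equal depth the sign also turned on ranks (0.0667) and within index set 3 (0.204), and for length when weighted by reads (-0.12 residues). With possible carry-over removed, tumours with the invariant chain differed by 50 percentage points from vehicle for AC484 and by 50 for anti-PD-1, under a limit in reads that shallow libraries meet less easily. Without single tumours, AC484 minus anti-PD-1 lay between -0.11 and 0.0180 for the invariant share, above 0 only without anti-PD-1-treated tumour 13, between -0.46 and 0.0425 for the variable share, above 0 only without anti-PD-1-treated tumour 6, and between -0.46 and 0.156 for chains at equal depth, above 0 without AC484-treated tumours 1, 4 or 9 or anti-PD-1-treated tumours 2 or 5. The cause of these changes was not tested.

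Traj18 usage for AC484 over vehicle lay between -0.50 and -0.38 on the log2 scale without single tumours, and stayed past the threshold in 38 of 44 cases. The call was lost without the invariant form (-0.35), with carry-over removed (-0.39), with index set as a factor (-0.79), without 5 tumours under 5000 TRA reads (-0.44) and with Traj18 taken by the shared ending alone and no invariant form (-0.40). Counted in reads it was 0.11, and 0.51 for anti-PD-1 over vehicle, and 6, 0 and 9 of 43 genes then passed for AC484 over vehicle, AC484 over anti-PD-1 and anti-PD-1 over vehicle, in place of 4, 4 and 1. DESeq2 called 4, 2 and 1. With the replicate number as a block (replicate block) it was -0.45 (edgeR adjusted p = 0.0511) and 3, 3 and 1 genes passed. The numbers do not pair the tumours: same-numbered deviations over 43 Traj shares had median correlations of -0.02, -0.13 and 0.00505, with 4 of 14, 2 of 15 and 3 of 14 pairs over 0.1. Depth limits the vehicle group most, where 5 of 14 tumours had fewer than 5000 TRA reads and no tumour of the other groups did.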
